A study of Homo sapiens with 9 samples.

Results

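The miR-99/100 and miR-125 families were examined in Jurkat cells as 7 mature miRNAs: hsa-miR-99a-5p, both arms of miR-99b, miR-100-5p, both arms of miR-125a, and miR-125b-5p. They were taken by name from a count table with 2654 distinct mature names, and they occupy 8 of its 2883 rows because miR-125b-5p is listed once for each of its precursors. In these cells the families were represented mainly by miR-99b-5p and miR-125a-5p, at means of 19.9 and 17.3 counts per 1000000, while miR-99a-5p, miR-100-5p and miR-125b-5p had no counts in most libraries. Of the 5 members with enough counts to be tested, 0 passed the test for a change at 5 h or 12 h after activation, where 1.57% and 1.43% of all rows tested did.

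A miRNA is cut from a hairpin precursor, and 1 arm of the hairpin (5p or 3p) is usually kept by an Argonaute protein, which it guides to messenger RNAs that pair with its seed, bases 2 to 8. miR-125 is the vertebrate relative of lin-4, the founding miRNA of C. elegans, and miR-99/100 and miR-125 genes lie beside let-7 genes in conserved clusters. In blood, miR-125a and miR-125b are known for a role in haematopoietic stem cells and, when overproduced, in leukaemia. The miR-99/100 family is known to repress MTOR, the growth-controlling kinase. These statements are background and were not measured here.

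The 9 libraries came from Jurkat clone E6-1, an established human leukaemic T lymphoblast line. Cells were left unactivated (0 h, the controls) or were activated for 5 h or 12 h on plates coated with antibody to CD3 (10 µg/mL), which signals for the T cell receptor, together with soluble anti-CD28 (5 µg/mL), which engages a costimulatory receptor. There were 3 biological replicates at each time, all from 1 clonal line, and every control was taken at 0 h, so activation and hours in culture cannot be told apart. Levels are in CPM, which is a row's count for each 1000000 counts in its library, with library sizes adjusted by TMM factors. Library totals are over all rows, so a mature miRNA listed with several precursors enters once per row. With each mature name counted once, the total of replicate 3 of 12 h was 4232272 in place of 6631839. CPM values are therefore lower than shares of counts with each name counted once. Means are given ± SD over 3 libraries.

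Library totals ran from 6631839 to 16207031 counts, and replicate 3 of 0 h and replicate 3 of 12 h were the shallowest. Where a count is 0, the upper limit it allows was set at 3 counts, or between 0.176 CPM (replicate 3 of 5 h) and 0.471 CPM (replicate 3 of 12 h). Such limits and all intervals on counts cover counting error alone. They do not cover the spread between replicates, nor duplicate copies made by amplification, if any. All 6 miRNAs listed as blood or T lineage markers were present in every library, summing to 43278 to 59586 CPM. Their levels differed widely, from miR-181a-5p at 25489 to 41678 CPM down to miR-155-5p at 0.579 to 12.7 CPM. Of 16 markers of other cell types 5 were at 0 throughout, miR-1-3p, miR-133a-3p, miR-206, miR-124-3p and miR-205-5p, and the 16 summed to 273 to 414 CPM. The highest of them in median were miR-223-3p, a myeloid miRNA, at 106 to 157 CPM, and the epithelial miR-200c-3p at 66.3 to 127 CPM and miR-141-3p at 51.3 to 97.4 CPM, each in all 9 libraries and above the means of all 7 members. miR-122-5p, a liver miRNA, ran from 0 to 66.8 CPM with a median of 2.13 CPM. The part of RNA from other cells in the members' counts was not tested.

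The mature sequences show how the members group. Each is written 5′ to 3′ from RefSeq (GRCh38.p14), which held all 7, with the seed in capitals. The miR-99/100 members share the seed ACCCGUA:
hsa-miR-99a-5p: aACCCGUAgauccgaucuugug
hsa-miR-99b-5p: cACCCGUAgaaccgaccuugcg
hsa-miR-100-5p: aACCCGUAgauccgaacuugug
The miR-125 members share the seed CCCUGAG:
hsa-miR-125a-5p: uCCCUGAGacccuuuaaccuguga
hsa-miR-125b-5p: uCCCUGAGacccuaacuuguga
The 3p arms carry other seeds:
hsa-miR-99b-3p: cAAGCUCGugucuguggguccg
hsa-miR-125a-3p: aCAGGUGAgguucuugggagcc
No other human miRNA of the reference has the miR-99/100 seed. miR-4319 also has the miR-125 seed and miR-99a-3p that of miR-99b-3p, and both had 0 counts in all 9 libraries.

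Some members are close enough to bear on how reads were assigned. Counted from 1 at the 5′ end, miR-99a-5p and miR-100-5p differ at 1 base, U16A (miR-99a-5p first), whereas miR-99a-5p and miR-99b-5p differ at 4, A1C, U11A, U16C and U21C. miR-125a-5p (24 nt) and miR-125b-5p (22 nt) are identical over their first 13 bases. How many mismatches the counting allowed is not given in the sources used here, and the small counts of miR-99a-5p and miR-100-5p are therefore uncertain as to which of the pair they belong to.

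The members come from 3 clusters, each with 1 gene of the miR-99/100 family, 1 let-7 gene and 1 miR-125 gene. On chromosome 19 (plus strand), MIR99B (chr19:51692612-51692681), MIRLET7E (chr19:51692786-51692864) and MIR125A (chr19:51693254-51693339) lie within 728 bases, inside introns of the protein-coding gene SPACA6. On the opposite strand they overlap exons of the long non-coding RNA SPACA6P-AS. On chromosome 11 (minus strand), MIR100 (chr11:122152229-122152308), MIRLET7A2 (chr11:122146522-122146593) and MIR125B1 (chr11:122099757-122099844) spread over 52.6 kb in introns of MIR100HG. On chromosome 21 (plus strand), MIR99A (chr21:16539089-16539169), MIRLET7C (chr21:16539828-16539911) and MIR125B2 (chr21:16590237-16590325) spread over 51.2 kb in introns of MIR99AHG. Positions are those of GENCODE 29 on GRCh38. Since miR-125b-5p has the same sequence in MIR125B1 and MIR125B2, and its counts were identical on both precursor rows in every library, it cannot be assigned to chromosome 11 or 21.

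The hairpins of the chromosome 19 members are shown because both of their arms were sequenced, with the arms in capitals. The 5p arm of MIR99B is bases 7 to 28 and its 3p arm bases 45 to 66, and in MIR125A they are bases 15 to 38 and 53 to 74:
MIR99B: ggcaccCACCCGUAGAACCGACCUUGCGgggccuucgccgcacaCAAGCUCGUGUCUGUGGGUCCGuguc
MIR125A: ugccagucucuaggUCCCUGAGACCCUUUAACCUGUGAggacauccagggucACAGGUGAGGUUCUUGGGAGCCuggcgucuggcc

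The 5p arms of the chromosome 19 cluster were the most abundant members. miR-99b-5p, the family's main carrier of the ACCCGUA seed in these cells, had counts of 340, 161 and 49 in replicates 1, 2 and 3 of 0 h, equal to 21.9, 12.3 and 7.46 CPM. At 5 h it had 286, 152 and 285 counts, or 26.7, 15.6 and 16.7 CPM. At 12 h the counts were 246, 250 and 249, or 18.4, 21.1 and 39.1 CPM, the last in the shallowest library. The highest library was thus replicate 3 of 12 h and the lowest replicate 3 of 0 h, and all 3 times overlapped. The group means were 13.9 ± 7.33 (0 h), 19.7 ± 6.10 (5 h) and 26.2 ± 11.2 (12 h) CPM, each with n = 3.

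miR-125a-5p, which carries the seed CCCUGAG, had 393, 203 and 46 counts at 0 h, or 25.3, 15.5 and 7.01 CPM in replicates 1, 2 and 3. The 5 h libraries held 183, 222 and 338 counts (17.1, 22.8 and 19.8 CPM). Those of 12 h held 195, 217 and 95 counts (14.6, 18.3 and 14.9 CPM). The controls spanned both the highest and the lowest value, so that each activated group lay inside their range. The unactivated cells had a mean of 15.9 ± 9.14 CPM, the 5 h cells 19.9 ± 2.86 CPM and the 12 h cells 15.9 ± 2.07 CPM.

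The spread between replicates was wider than counting error alone would give, least so for miR-125a-5p in the activated cells. For miR-99b-5p the coefficient of variation was 52.8% at 0 h, 31.0% at 5 h and 43.0% at 12 h, where counting alone would give 7.39%, 6.44% and 6.35%. For miR-125a-5p it was 57.4% among the controls, against 6.84% from counting, but 14.4% at 5 h and 12.99% at 12 h, where counting alone would give 6.35% and 7.69%. In rank of mean CPM over the 9 libraries, miR-99b-5p was 197th and miR-125a-5p 208th of 1098 mature names with any count. The mean level of miR-99b-5p was 19.9 CPM, that of miR-125a-5p 17.3 CPM, and per base of mature sequence 0.905 and 0.719 CPM, a gap smaller than the spread of either among the controls.

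The 3p arms, the less abundant strands, had means over the 9 libraries of 2.42 CPM (miR-99b-3p) and 2.73 CPM (miR-125a-3p), or 0.110 and 0.124 CPM per base, and were both at 0 in 1 library. miR-99b-3p had 4.05, 3.90 and 1.52 CPM in the control replicates, 1.87, 1.44 and 3.81 CPM at 5 h, and 2.61, 2.62 and 0 CPM at 12 h. miR-125a-3p had 9.39, 2.75 and 0.762 CPM in the controls, from counts of 146, 36 and 5. It had 4.95, 2.46 and 1.94 CPM at 5 h, and 0.896, 1.43 and 0 CPM at 12 h, from counts of 12, 17 and 0. Its 12 h values all lay below its 5 h values, but the controls overlapped both times, and replicate 1 of 0 h alone held 146 of the 187 control counts.

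The remaining 3 members were at 0 in most libraries, with 10 to 75 counts where they were present. miR-100-5p had counts of 0, 31 and 10 at 0 h, 0, 0 and 75 at 5 h, and 0 in all 3 libraries at 12 h. miR-125b-5p had 30 counts in replicate 1 of 0 h (1.93 CPM) and 45 in replicate 3 of 5 h (2.64 CPM), and 0 in the other 7 libraries. miR-99a-5p had 14 counts in replicate 1 of 5 h (1.31 CPM) and 0 elsewhere. Replicate 3 of 5 h was the only library with more than 1 of these 3 members, and replicate 2 of 5 h and the 12 h libraries held none of them.

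In replicate 3 of 5 h these 3 members summed to 120 counts (7.04 CPM), against 0 to 31 counts in the other libraries. That library is the deepest, and it also had the highest sum of the 4 listed smooth muscle and fibroblast markers, miR-143-3p, miR-145-5p, miR-199a-3p and miR-214-3p, at 23.7 CPM against 6.55 to 14.1 CPM elsewhere. Elsewhere the marker sum and these members did not rank the libraries alike. Replicate 1 of 5 h (14.1 CPM) held 14 counts of the members. Replicate 3 of 12 h (12.9 CPM) and replicate 2 of 5 h (12.6 CPM) held 0, and replicate 3 of 0 h (6.55 CPM) held 10. The sum does not describe each marker. miR-143-3p, present in all 9 libraries, ran from 1.07 to 12.9 CPM, and its highest value was the whole sum of replicate 3 of 12 h. miR-199a-3p, miR-145-5p and miR-214-3p had counts in 8, 4 and 2 libraries. The part of depth or of RNA from other cells in the counts of these members was not tested. Over the 12 h libraries, 0 counts of miR-100-5p allow a level of up to 0.0949 CPM, with a mean of 1.30 ± 1.20 CPM at 0 h and 1.47 ± 2.54 CPM at 5 h. This limit covers counting error alone. miR-100-5p was at 0 in replicate 1 of 0 h but at 31 counts in replicate 2, a spread wider than such a limit allows for. Over all rows, 394 of the 6595 values above 0 were counts of 1 to 4.

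**Figure D1:**
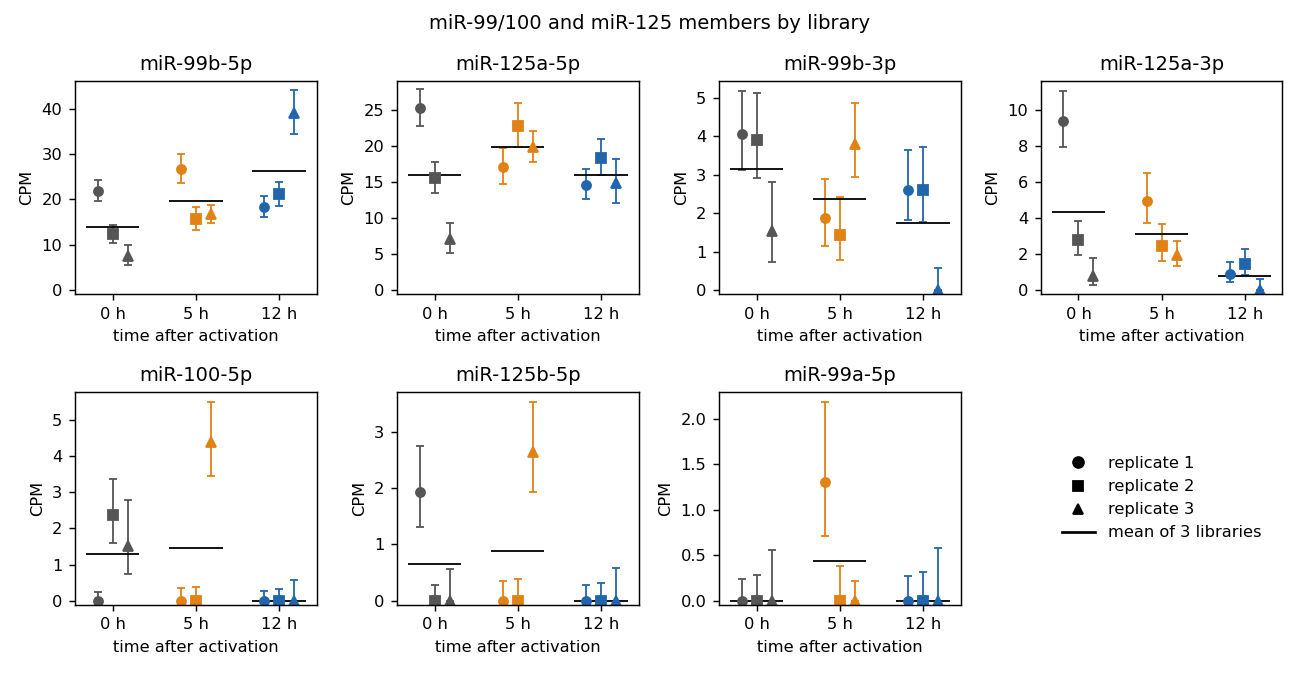
CPM of each member (y axis, a separate linear scale per panel) in each library at 0, 5 and 12 h, with bars for exact Poisson 95% intervals that cover counting error only and a line for the mean of 3 libraries. miR-99b-5p and miR-125a-5p were present in all 9 libraries, from 7.01 to 39.1 CPM, whereas miR-100-5p, miR-125b-5p and miR-99a-5p had counts in 3, 2 and 1 libraries.

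Beside the members, the 10 other mature arms of the 3 clusters were read from the same table. Only the let-7 5p arms had counts, and the 7 others (let-7c-3p, let-7e-3p, let-7a-2-3p, miR-99a-3p, miR-100-3p, miR-125b-1-3p and miR-125b-2-3p) were at 0 in all 9 libraries. let-7e-5p, which is cut from between miR-99b and miR-125a, had a lowest, median and highest level of 339.9, 403.5 and 534.7 CPM. Its counts were 10.7 to 71.6 times those of miR-99b-5p and 13.5 to 76.3 times those of miR-125a-5p in the same library. let-7c-5p had 187 to 288 CPM, although miR-99a-5p and miR-125b-5p, which share its cluster, were at 0 in 8 and 7 of the 9 libraries.

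The let-7 values carry the same limit on read assignment. let-7a-5p, the most abundant miRNA of the table at 77114 to 101521 CPM, differs from let-7c-5p at A19G and from let-7e-5p at U9G. The 3 sequences are given with each base that differs from let-7a-5p in capitals:
let-7a-5p: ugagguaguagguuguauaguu
let-7c-5p: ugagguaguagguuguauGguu
let-7e-5p: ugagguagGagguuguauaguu
The counts of let-7c-5p were 0.231% to 0.328% and those of let-7e-5p 0.432% to 0.527% of those of let-7a-5p in each library. Whether reads of let-7a-5p with 1 changed base entered these counts was not tested. let-7a-5p also comes from precursors outside these clusters, so its level says nothing of the chromosome 11 cluster.

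**Figure D2:**
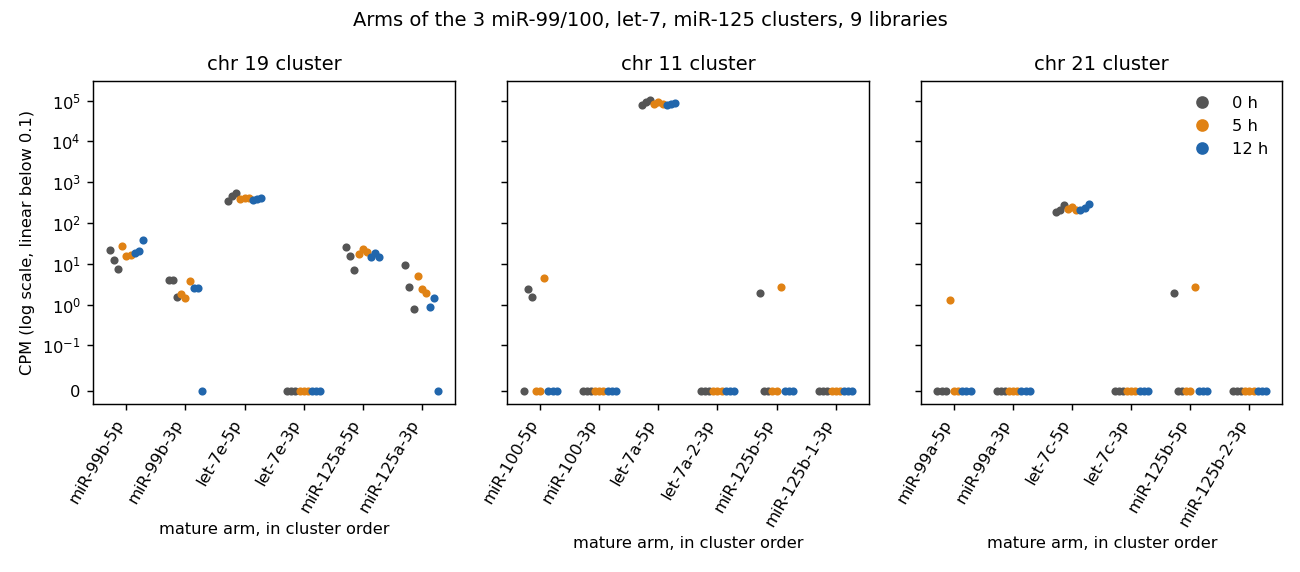
CPM (logarithmic above 0.1, linear below) of every mature arm of the 3 clusters, in genomic order within each cluster, with 1 point per library coloured by time. miR-125b-5p is drawn in both clusters that encode it, and the let-7 5p arms lie above their neighbours in all 9 libraries.

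The first comparison asked whether members had changed 5 h after activation. 5 of the 7 members passed the filter on low counts and were tested, and miR-99a-5p and miR-125b-5p did not. edgeR's quasi-likelihood test over 701 rows called 1.57% of them at a Benjamini-Hochberg adjusted p of 0.05 (1.43% higher and 0.143% lower), and 0 of the 5 members. None of the 5 had an unadjusted p under 0.05, and DESeq2 and limma-voom also called 0 of 5, with 0 unadjusted. For miR-99b-5p the log2 change was 0.49 (SE 0.40, 95% interval -0.35 to 1.33, edgeR adjusted p = 0.996), and for miR-125a-5p 0.31 (SE 0.39, -0.50 to 1.12, adjusted p = 0.996).

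Both values depended on single libraries. When replicate 1 of 0 h was left out, the change was 1.00 for miR-99b-5p and 0.84 for miR-125a-5p. When replicate 3 of 0 h was left out, it was 0.20 and -0.04. Leaving out replicate 1 of 5 h gave 0.18 for miR-99b-5p, and leaving out replicate 2 of 5 h gave 0.16 for miR-125a-5p. The 3p arms had wider intervals, from -2.92 to 2.10 for miR-99b-3p and from -2.89 to 1.95 for miR-125a-3p on the log2 scale. The groups of each of the 5 tested members overlapped at 5 h against 0 h, as they did in all but 10.8% of the rows tested.

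The second comparison set 12 h against 0 h, where edgeR called 1.43% of rows (0.999% higher and 0.428% lower) and 0 of 5 members. At an unadjusted p under 0.05 in edgeR stood 2 members, miR-99b-5p and miR-100-5p. DESeq2 called 0 and had 2 unadjusted, but these were miR-100-5p and miR-125a-3p. Its log2 change of miR-99b-5p was 0.87 (SE 0.47) and was not under 0.05 unadjusted. limma-voom called 0 (0 unadjusted). For miR-99b-5p the log2 change was 0.90 (SE 0.40, 95% interval 0.05 to 1.75, edgeR adjusted p = 0.661), with group means of 13.9 and 26.2 CPM. Leaving out replicate 3 of 12 h gave 0.47, leaving out replicate 3 of 0 h 0.62, and leaving out both, which are the shallowest libraries, 0.19. With replicate 1 of 0 h left out it was 1.38 (edgeR adjusted p = 0.330).

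miR-125a-5p, from the same cluster, had a log2 change of -0.01 (SE 0.39, 95% interval -0.82 to 0.81, edgeR adjusted p = 0.996). Here the same controls gave 0.48 (replicate 1 of 0 h left out) and -0.35 (replicate 3 of 0 h left out). For miR-125a-3p the log2 change was -2.42 (SE 1.22, -4.99 to 0.14, adjusted p = 0.700), and -1.17 without replicate 1 of 0 h, the library with the most counts of this arm. miR-99b-3p had a log2 change of -0.84 (SE 1.20, adjusted p = 0.974).

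miR-100-5p was at 0 at 12 h, so only a limit can be given. It passed the filter on low counts through the 3 libraries in which it had counts, none of them at 12 h. Its bounds, fitted changes and unadjusted p values against 12 h are conditioned on that and are no support for a change. miR-99a-5p and miR-125b-5p, with counts in 1 and 2 libraries, were filtered out. Set against a floor of 3 counts summed over the 12 h group, the mean at 0 h was at least 13.7-fold higher. This bound covers counting error at 12 h alone and not the spread between replicates. edgeR's test, which is of the fitted change and not of the bound, gave an adjusted p of 0.661. The bound dropped to 8.03-fold when replicate 2 of 0 h was left out, was 7.88-fold or 8.55-fold when replicate 1 or 2 of 12 h was, and reached 20.5-fold in the absence of replicate 1 of 0 h. Replicate 1 of 0 h, 1 of the 2 deepest libraries, also had 0 counts, so the groups overlapped.

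Between 12 h and 5 h, the third comparison, edgeR called 0.571% of rows (0.143% higher and 0.428% lower) and 0 of 5 members, with 1 member, miR-100-5p, under an unadjusted p of 0.05 (DESeq2 0 called and 1 unadjusted, limma-voom 0 and 0). For miR-99b-5p the log2 change was 0.41 (SE 0.40, 95% interval -0.43 to 1.25, adjusted p = 1) and for miR-125a-5p -0.32 (SE 0.39, -1.14 to 0.50, adjusted p = 1). Without replicate 3 of 12 h the first was -0.00. miR-125a-3p, whose 12 h libraries all lay below those of 5 h, had a log2 change of -1.95 (SE 1.21, -4.48 to 0.59, adjusted p = 0.850), and the groups of 12.8% of rows did not overlap in this comparison. The mean of miR-100-5p at 5 h was at least 15.5-fold above the floor at 12 h, a bound that again covers counting error at 12 h alone. It rests on replicate 3 of 5 h, without which both groups were at 0. The fitted change had an edgeR adjusted p of 0.720. That bound was 8.91-fold or 9.66-fold with replicate 1 or 2 of 12 h left out, and 23.2-fold with either replicate 1 or 2 of 5 h left out.

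The median log2 change of the 5 tested members was 0.19 at 5 h, -0.84 at 12 h and -0.43 between them, against 0.03, 0.01 and -0.03 over all rows tested. Each median is the value of 1 row, miR-100-5p at 5 h and miR-99b-3p (SE 1.20) in the comparisons with 12 h. The most abundant members, miR-99b-5p and miR-125a-5p, had 0.90 and -0.01 at 12 h against 0 h. Both arms of miR-99b and of miR-125a are among the 5, so these are not independent. With miR-100-5p placed at its bound, the medians that involve 12 h are the same. All 3 medians moved with single libraries. At 5 h the median was 0.82 without replicate 1 of 0 h, -0.04 when replicate 3 of 0 h was left out and -0.28 when replicate 3 of 5 h was. At 12 h against 0 h leaving out 1 library gave -1.28 (replicate 1 of 12 h) to -0.30 (replicate 3 of 12 h). Between 12 h and 5 h it gave -0.85 (replicate 1 of 12 h) to 0 (replicate 3 of 5 h). A joint test of the 3 times (edgeR) called 1.71% of rows and 0 members, the smallest adjusted p being 0.857 (miR-99b-5p and miR-100-5p). Among the cluster neighbours, 3 were tested and 0 were called in any comparison, with 0 at an unadjusted p under 0.05 (edgeR). The log2 change of let-7e-5p was -0.12 (SE 0.15) at 5 h and -0.16 (SE 0.15) at 12 h, and that of let-7c-5p -0.03 (SE 0.17) and 0.10 (SE 0.17).

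**Figure D3:**
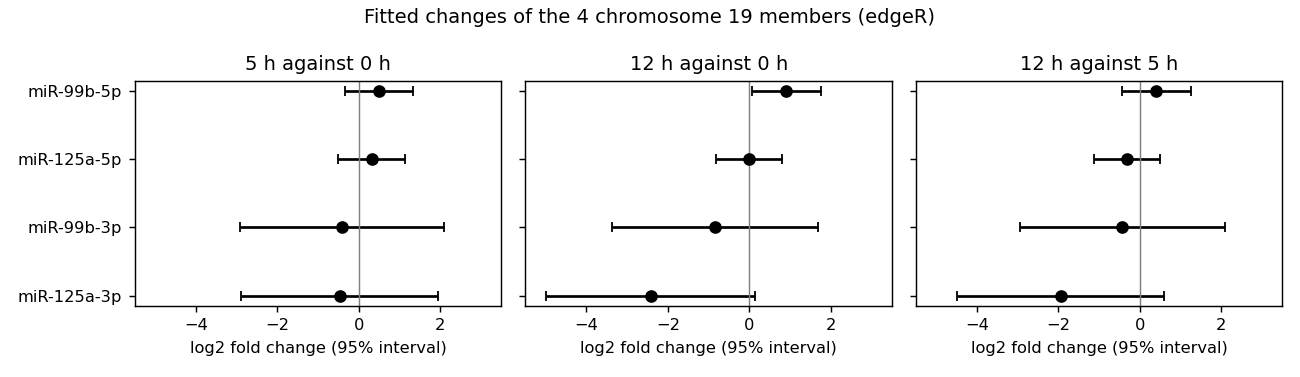
Log2 fold changes (points) with 95% intervals (bars) of the 4 chromosome 19 members in the edgeR fit, for the 3 comparisons. The 5p arms have the narrower intervals, and miR-99b-5p at 12 h against 0 h has the only interval of these 12 that does not include 0, with an adjusted p of 0.661.

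Ratios within a library do not depend on its scaling, and were compared next. The ratio of miR-125a-5p to miR-99b-5p, which lie in 1 cluster, was 0.21, 0.33 and -0.09 on the log2 scale in the control replicates, -0.64, 0.55 and 0.25 at 5 h and -0.34, -0.20 and -1.39 at 12 h. All 3 values at 12 h lay below all 3 controls, with a difference in means of -0.79 (exact two-sided permutation p = 0.1, the smallest that 3 against 3 libraries can give, adjusted p = 0.8 over 12 such tests). Without replicate 3 of 12 h the difference was -0.42, and without the 2 shallowest libraries -0.54. At 5 h against 0 h it was -0.10 (exact permutation p = 0.9, adjusted p = 1) and turned to 0.25 without replicate 1 of 5 h.

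The ratio of let-7e-5p to miR-99b-5p averaged 5.10 on the log2 scale in unactivated cells, 4.41 after 5 h and 4.00 after 12 h. The differences from 0 h were -0.70 (exact permutation p = 0.4, adjusted p = 0.8) and -1.11 (exact permutation p = 0.3, adjusted p = 0.8), and the control replicates alone ran from 3.96 to 6.16. Without replicate 3 of 0 h they were -0.17 and -0.58, and with replicate 1 of 0 h left out -1.27 and -1.68. Leaving out replicate 1 of 5 h gave -0.44 for the first. The spread among the unactivated replicates was thus wider than either difference.

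The balance of the 2 arms was compared in 165 precursors whose arms both passed the filter on low counts, using limma on log2 ratios of counts (pseudocount 0.5). At 12 h against 0 h, 0 precursors (0%) passed at an adjusted p of 0.05 and 11 had an unadjusted p under 0.05. At 5 h the numbers were 0 (0%) and 9, and between 12 h and 5 h 0 (0%) and 12. For miR-125a the log2 ratio of 5p to 3p was 1.43, 2.48 and 3.08 in the controls, 1.78, 3.18 and 3.34 at 5 h, and 3.97, 3.64 and 7.58 at 12 h. The 12 h values lay above the others, where the groups of 14.5% of precursors did not overlap at 12 h against 0 h and of 15.2% between 12 h and 5 h. The mean differed by 2.73 (SE 1.09, 95% interval 0.17 to 5.29, limma adjusted p = 0.593) from 0 h and by 2.29 (SE 1.09, adjusted p = 0.743) from 5 h. With an unadjusted limma p of 0.0395 against 0 h, miR-125a was among the 11 precursors under 0.05 there.

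For miR-99b the log2 ratio of the arms was 2.42, 1.65 and 2.24 in the controls, 3.80, 3.39 and 2.12 at 5 h, and 2.80, 2.99 and 8.96 at 12 h, with a change of 2.81 (SE 1.57, limma adjusted p = 0.733) at 12 h against 0 h. Its 12 h values also lay above all controls, but overlapped those of 5 h, and the 5 h values overlapped the controls in both precursors (18.2% of precursors did not overlap there). Both 3p arms had 0 counts in replicate 3 of 12 h, so its ratios are set by the pseudocount. Against a floor of 3 counts, which covers counting error alone, the 5p arm was at least 83-fold above the 3p arm there for miR-99b. For miR-125a it was at least 31.7-fold above. Without that library the changes at 12 h against 0 h were 0.79 for miR-99b and 1.47 for miR-125a, and between 12 h and 5 h -0.21 and 1.04.

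**Figure D4:**
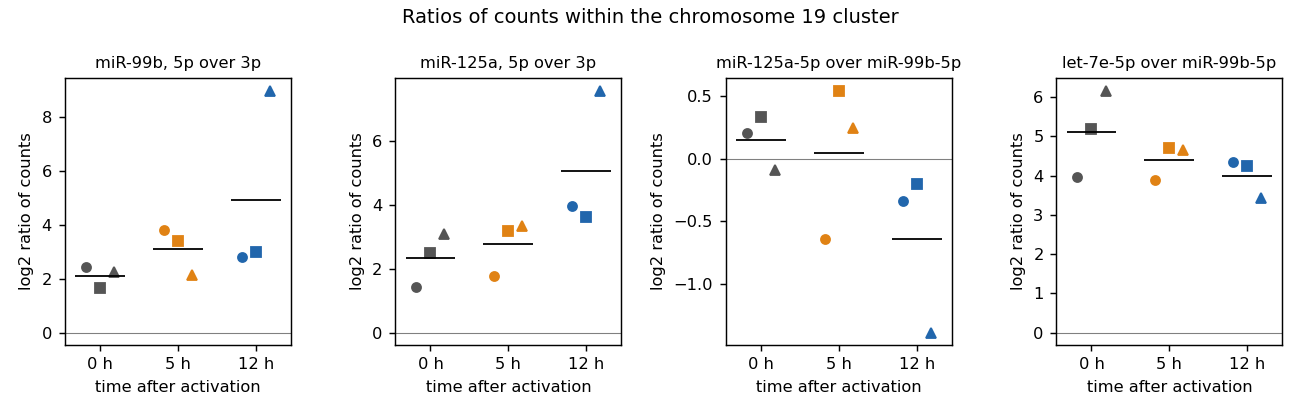
Log2 ratios of counts within the chromosome 19 cluster (y axis) by time, with 1 point per library (circle, square and triangle for replicates 1, 2 and 3) and a line for the mean. Replicate 3 of 12 h stands apart in the first 3 panels, at 8.96, 7.58 and -1.39, and in the first pair of panels its 3p count is 0.

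Most counts of each seed family were of the chromosome 19 member, with a share that ran from 79.2% to 100% for miR-99b-5p and from 88.3% to 100% for miR-125a-5p. miR-99b-5p held 100%, 83.9% and 83.1% of the counts of miR-99a-5p, miR-99b-5p and miR-100-5p in the controls, 95.3%, 100% and 79.2% at 5 h, and 100% in each 12 h library. The difference between 12 h and 0 h was 11.03 percentage points (exact permutation p = 0.4, adjusted p = 0.8), and it was 16.5 points without replicate 1 of 0 h. miR-125a-5p held 92.9% of the counts of miR-125a-5p and miR-125b-5p in replicate 1 of 0 h, 88.3% in replicate 3 of 5 h and 100% in the other 7 libraries. The 12 h share of miR-125a-5p exceeded that of 0 h by 2.36 points (exact permutation p = 1) and that of 5 h by 3.92 points (exact permutation p = 1).

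Together, the 3 miRNAs with the miR-99/100 seed held 13.2 to 58.8 and the pair with the miR-125 seed 10.3 to 43.3 of each 1000000 counts when every mature name was counted once. For the miR-99/100 seed the lowest library was replicate 3 of 0 h (13.2, exact Clopper-Pearson 95% interval 10.0 to 17.0) and the highest replicate 3 of 12 h (58.8, 51.8 to 66.6). The total with each name counted once is smaller than the one behind CPM. The 249 counts of miR-99b-5p in replicate 3 of 12 h were thus 39.1 CPM but 58.8 here. For the miR-125 seed the lowest was again replicate 3 of 0 h (10.3, 7.51 to 13.7), and the highest replicate 1 of 0 h (43.3, 39.3 to 47.7). The extremes of the miR-125 seed thus both lay among the unactivated cells.

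Across the 9 libraries, which differ in depth and within each of which both miRNAs share depth and scaling factor, the log2 CPM of miR-99b-5p and miR-125a-5p had a Pearson correlation of 0.52. With let-7e-5p the correlation was -0.65 for miR-99b-5p and -0.83 for miR-125a-5p, although the 3 lie in 1 cluster. Of 119 other miRNAs with a mean of at least 100 CPM, those most like miR-99b-5p were miR-423-3p (0.85), miR-185-5p (0.76) and miR-320b (0.66), and those most like miR-125a-5p were miR-423-3p (0.66), miR-363-3p (0.65) and miR-505-5p (0.64). These are descriptions over 9 libraries with no test.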

How the data were processed

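Raw counts were deposited by the authors in a table whose rows pair a precursor with a mature miRNA. A second table by the authors holds log2 normalised values. It keeps 430 rows, those with counts in each of the 9 libraries, among them 2 members. GRCh38.p13 and DESeq2 are named in the submitters' processing notes. Which aligner and counting tool made the counts is not given in the sources used here. Members and lists were chosen with earlier results of these data known.

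Rows were filtered with filterByExpr (minimum count 10, minimum total 15), scaled by TMM and fitted in edgeR 4.0.16 (R 4.3.3) with 1 mean per time over all 9 libraries, with Benjamini-Hochberg adjustment over 701 rows. A mature miRNA with several rows was read from the row with the highest total. Arm ratios used limma 3.58.1. Ratios and shares used exact permutation tests over libraries in scipy 1.17.1. DESeq2 1.42.0, limma-voom, other scalings and filters, and left-out libraries were alternatives. All 7 members, the other arms of their clusters, miRNAs sharing a seed, and the 3 miRNAs most like each main member were named. Total counts were 6631839 to 16207031 per library, and no replicates were alike within sampling noise (chi-square over degrees of freedom of 66.2 or more). Figures were drawn with matplotlib 3.10.9.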

Additional observations from a re-analysis of the deposited data

How the results depend on the processing

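In the 295 alternative fits of the 15 changes of tested members, 0 passed the threshold (lowest adjusted p 0.330), and 0 members and 0 cluster neighbours were called under any setting. The count of rows called at 5 h against 0 h (11) became 17 with no filter on low counts and 5 with limma on the deposited log2 values. At 12 h against 0 h (10) it became 6 with only the groups compared and 6 on the deposited values. Between 12 h and 5 h (4) it became 12 with no filter, and for any time (12) 21 with no filter and 7 on the deposited values. Leaving out 1 library gave 3 to 10 between 12 h and 5 h (10 without replicate 1 of 12 h) and 7 to 15 for any time (7 without replicate 2 of 12 h). Deviations of same-numbered libraries were at most weakly correlated (r from -0.11 to 0.28 over 283 rows, 3 of 9 pairs over 0.1). The highest r, 0.28, was between replicate 3 of 0 h and replicate 3 of 12 h, the 2 shallowest libraries. The numbers were not taken as pairs. With a replicate block 11 rows were called between 12 h and 5 h and 21 for any time, and log2 changes turned to -0.999 (miR-100-5p, 5 h), 0.15 (miR-125a-3p, 5 h) and 0.081 (miR-125a-5p, 12 h). A stricter filter gave 1 precursor with a changed arm ratio in each of the 3 comparisons, and leaving out 1 library 0 to 2 at 5 h, 0 to 4 at 12 h and 0 to 1 between them.

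Other changes of sign were in values near 0 or in rows with few counts. limma-voom gave -0.65 for miR-100-5p and 0.016 for let-7c-5p at 5 h, and library totals gave 0.034 for let-7c-5p at 5 h and 0.0095 for miR-125a-5p at 12 h. Upper quartile factors gave, at 12 h against 0 h, 0.14 for miR-125a-5p, 0.0022 for let-7e-5p and 0.035 for let-7a-5p, and between 12 h and 5 h 0.13 for let-7e-5p and 0.11 for let-7a-5p. The deposited log2 values gave 0.15 for miR-125a-5p at 12 h, and the stricter filter 0.016 for let-7e-5p between 12 h and 5 h. Without the 2 shallowest libraries the change at 5 h was -0.035 for miR-125a-5p, 0.16 for let-7c-5p, 0.043 for let-7e-5p and 0.023 for let-7a-5p. Between 12 h and 5 h it was then -0.00095 for miR-99b-5p, 0.11 for miR-99b-3p and -0.023 for let-7c-5p, with -0.21 for the miR-99b arm ratio, and the share of miR-99b-5p differed by -0.43 points at 5 h.

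Leaving out 1 library at a time, log2 changes at 5 h ran from -6.84 to 0.96 (miR-100-5p), -0.036 to 0.84 (miR-125a-5p), -1.01 to 0.82 (miR-125a-3p), -0.15 to 0.15 (let-7c-5p), -0.25 to 0.034 (let-7e-5p) and -0.19 to 0.016 (let-7a-5p). At 12 h against 0 h they ran from -0.35 to 0.48 (miR-125a-5p), -0.081 to 0.29 (let-7c-5p) and -0.32 to 0.0067 (let-7e-5p). Between 12 h and 5 h they ran from -0.0021 to 0.69 (miR-99b-5p), -0.85 to 0.11 (miR-99b-3p), -7.70 to 0 (miR-100-5p), -0.024 to 0.22 (let-7c-5p) and -0.11 to 0.038 (let-7a-5p). The miR-125a arm ratio ran from -0.013 to 0.93 at 5 h, and that of miR-99b from -0.21 to 2.87 between 12 h and 5 h. The share of miR-99b-5p ran from -1.72 to 8.70 points at 5 h. That of miR-125a-5p ran from -3.92 to 2.36 at 5 h, 0 to 3.55 at 12 h and 0 to 5.87 between them, and the log2 ratio of miR-125a-5p to miR-99b-5p from -0.35 to 0.25 at 5 h. The -6.84 and -7.70 of miR-100-5p are fitted against a group at 0, depend on the prior count and are no measure of size. The cause of these moves was not tested. miR-100-5p and the 3p arms gave no value on the deposited log2 values or under the stricter filter, and the fit of only the groups compared gave none for miR-100-5p with the 12 h libraries. Low counts limit the 3p arms and the near-absent members.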
